A study of Homo sapiens with 11 samples.

Results

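The genes described here are 10 inflammatory target genes of the transcription factor NF-kappaB: the chemokine genes CXCL1, CXCL2, CXCL8 and CCL20, the interleukin genes IL1A, IL1B and IL6, the inhibitor genes TNFAIP3 and NFKBIA, and the adhesion gene ICAM1. They were chosen by symbol, and every probe set that mapped to one of these symbols alone was used, which gave 15 probe sets for the 10 genes, of 16383 probe sets and 8549 genes in all. CXCL8, IL1A and TNFAIP3 had 2 probe sets each, ICAM1 had 3, and the other 6 genes had 1. The cells were SCC9, an established human cell line derived from a tongue squamous carcinoma, which the sample labels spell SSC9. They were measured on 11 Affymetrix U133A arrays, on which each probe set reads a transcript with several short probes. Control dishes received no drug. The cisplatin group received 0.5 µmol/L of this platinum drug, which crosslinks DNA, and the nimesulide group received 100 µmol/L of this anti-inflammatory drug, which preferentially inhibits cyclooxygenase-2. The combination group received both agents at these concentrations. The agents were added 24 hours after seeding, and the length of exposure was not given in the sources used here. There were 3 arrays each for control, cisplatin and nimesulide (replicate letters A, B and C) and 2 for the combination (letters A and B). A combination array with the letter C was not analysed here. All groups are the same cell line, with no genetic change between them.

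In resting cells NF-kappaB dimers are held in the cytoplasm by inhibitor proteins of the IkappaB family. Cytokines such as TNF and interleukin-1, or microbial products, activate a kinase complex that marks the inhibitor for destruction, and the freed dimers enter the nucleus and bind short kappaB sites near their target genes. Among the targets are neutrophil-attracting chemokines, interleukins and adhesion molecules, and also the inhibitors themselves, which close a negative feedback loop. Squamous carcinoma cells of the head and neck are known to secrete interleukin-6 and the CXCL8 protein (interleukin-8).

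The promoters of the members are shown because the genes were grouped by a shared regulator, and the kappaB site is the sequence that this regulator is known to bind. Promoter windows from RefSeq (GRCh38.p14) ran from 250 bases before to 50 bases after each gene's start, and 11 windows matched the 10 genes. The motif searched was GGNNNTTCC, which reads GGAANNNCC on the opposite strand. It occurred in 8 of the 10 genes and in none of the 3 windows of IL1A and IL1B. Of all 35116 promoter windows, 20.1% held it. The match is a description of these letters and does not show binding, and a window without it says nothing about the factor. The next 5 windows run from 110 to 11 bases before the start, 5′ to 3′ on the gene's strand, with each match in capitals. They are grouped because CXCL1, CXCL2, CXCL8 and NFKBIA each hold a match that reads on both strands, as ICAM1 does, and IL6 is set beside them as the gene with the second-largest difference described below.
CXCL1 (chr4:73869283-73869382, + strand): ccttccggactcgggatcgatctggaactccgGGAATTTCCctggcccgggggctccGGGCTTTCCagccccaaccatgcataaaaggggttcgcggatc
CXCL2 (chr4:74099206-74099305, - strand): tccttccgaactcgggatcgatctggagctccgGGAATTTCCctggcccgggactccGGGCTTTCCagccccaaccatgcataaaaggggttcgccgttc
CXCL8 (chr4:73740459-73740558, + strand): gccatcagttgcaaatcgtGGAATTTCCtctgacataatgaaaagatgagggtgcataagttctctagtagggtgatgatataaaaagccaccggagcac
IL6 (chr7:22727090-22727189, + strand): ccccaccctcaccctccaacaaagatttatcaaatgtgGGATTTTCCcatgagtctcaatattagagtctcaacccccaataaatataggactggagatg
NFKBIA (chr14:35404760-35404859, - strand): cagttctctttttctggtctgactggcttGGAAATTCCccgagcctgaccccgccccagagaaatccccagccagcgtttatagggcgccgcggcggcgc

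The CXCL1 and CXCL2 windows are near copies of each other, and both hold matches that begin 53 bases before the start and 78 or 77 bases before it. In CXCL8 the match began 91 bases before the start, in IL6 72 bases before it, and in NFKBIA 81 bases before it. NFKBIA had a further match 242 bases before the start, outside the printed window. The remaining 3 genes with a match follow. The TNFAIP3 and CCL20 windows are cut as above, and the ICAM1 window runs from 200 to 101 bases before the start.
TNFAIP3 (chr6:137867149-137867248, + strand): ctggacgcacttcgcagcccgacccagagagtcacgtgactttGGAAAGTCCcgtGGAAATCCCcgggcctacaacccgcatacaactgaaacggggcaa
CCL20 (chr2:227813732-227813831, + strand): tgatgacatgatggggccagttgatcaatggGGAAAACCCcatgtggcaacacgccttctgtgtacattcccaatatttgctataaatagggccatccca
ICAM1 (chr19:10270920-10271019, + strand): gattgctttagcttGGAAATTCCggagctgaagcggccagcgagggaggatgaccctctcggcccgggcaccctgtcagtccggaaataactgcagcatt

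TNFAIP3 held matches 67 and 55 bases before the start, both on the opposite strand, CCL20 held one 79 bases before it, and ICAM1 held one 186 bases before it.

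**Figure D1:**
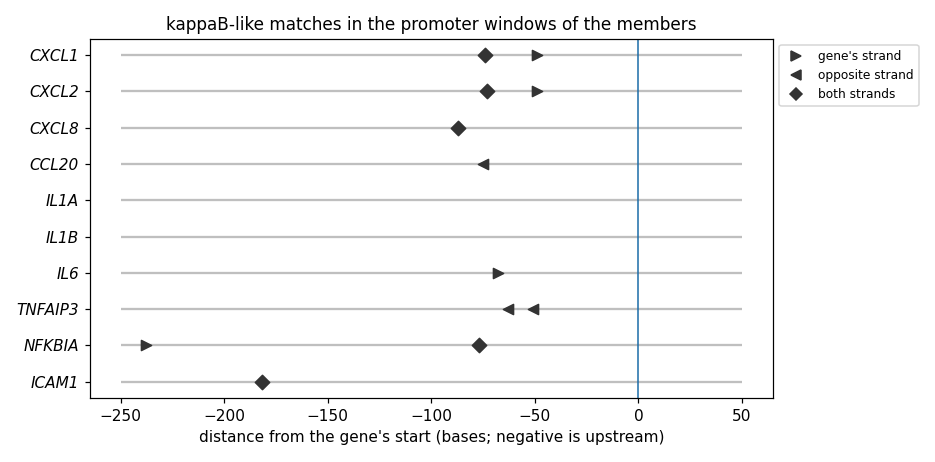
Positions of the 9-base kappaB-like matches (markers, drawn at the centre of the match) in the promoter windows of the 10 genes, with the distance from the gene's start in bases on the x axis. In 7 of the 8 genes with a match, at least 1 lies within 100 bases before the start, and IL1A and IL1B have none.

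Levels are the deposited values on a log2 scale, on which 1 unit is a doubling. Over all probe sets the median level was 5.40 and the lower quartile 4.11. NFKBIA, IL6, ICAM1, TNFAIP3 and IL1B lay above the median level, so 5 of the 10 genes and 8 of the 15 probe sets did so. CXCL2, CCL20, 1 of the 2 CXCL8 probe sets and 1 of the 2 IL1A probe sets lay below the lower quartile. Probe sets differ in how strongly they bind, so the order of these levels ranks signals and not amounts of transcript. Of the line's squamous epithelial markers, 7 of 10 had a probe set, and KRT5, SFN, DSG3, ITGB4 and CDH1 lay above the median level, whereas KRT14 and PKP1 did not. Of the markers of other cell types, CD3E was the leukocyte marker above the median (1 of 5 measured), DCN the fibroblast marker (1 of 6), and none of 4 endothelial markers was above it, with PTPRC, the pan-leukocyte marker, at 4.36. Arrays of the same treatment correlated at 0.996 to 0.998 over all probe sets, and array medians lay between 5.37 and 5.43.

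CXCL8 encodes interleukin-8, which draws neutrophils. The name of its brighter probe set (202859_x_at) marks probes that may also bind other transcripts. Its level in replicates A, B and C was 4.29, 5.50 and 4.54 in control, 4.21, 5.41 and 4.54 with cisplatin, and 4.37, 5.02 and 4.54 with nimesulide. In the combination it was 4.11 in A and 4.43 in B. The B arrays of control, cisplatin and nimesulide stood above all other arrays, and combination B did not join them. The deposited value in replicate C was identical, at 4.54463, in all 3 treatments. Identical values on some arrays occurred in 6 of the 15 member probe sets (40%) and in 54.1% of all probe sets. The second probe set (211506_s_at) read 3.82, 4.28 and 3.78 in control, 3.79, 4.15 and 3.97 with cisplatin, 3.73, 4.51 and 3.85 with nimesulide, and 3.70 and 3.90 in the combination.

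CXCL1, another ligand of the neutrophil receptor CXCR2, had levels of 3.95, 4.79 and 4.14 in control, 4.04, 4.79 and 4.14 with cisplatin, 3.99, 4.70 and 3.99 with nimesulide, and 3.98 and 4.14 in the combination. The same 3 B arrays were again the highest, with no other array above 4.14. CXCL2, a close relative, read 3.60, 3.90 and 3.98 in control, 3.70, 3.97 and 3.66 with cisplatin, 3.495, 3.79 and 3.74 with nimesulide, and 3.73 and 3.73 in the combination, and its groups of arrays overlapped. CXCL1 and CXCL2 are near-identical genes, and the CXCL2 probe set (209774_x_at) carries the same mark as that of CXCL8, so the division of signal between the 2 genes is uncertain. CCL20, the ligand of CCR6 that attracts dendritic cells and Th17 cells, ranged over 0.38 log2 units in all 11 arrays. It was 3.78, 3.66 and 3.81 in control, 3.81, 4.002 and 3.62 with cisplatin, 3.73, 3.99 and 3.75 with nimesulide, and 3.81 and 4.01 in the combination.

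IL6, a cytokine that signals through STAT3, read 6.75, 7.74 and 6.96 in control, 7.06, 7.82 and 7.004 with cisplatin, 6.98, 7.72 and 7.01 with nimesulide, and 7.15 and 7.04 in the combination. Its lowest B array outside the combination lay 0.66 above the highest A or C array of these treatments. IL1A, an interleukin-1 held in epithelial cells and released on damage, had levels (208200_at) of 3.85, 4.33 and 3.94 in control, 4.18, 4.08 and 4.11 with cisplatin, 4.08, 4.31 and 4.18 with nimesulide, and 4.33 and 3.80 in the combination. Its highest and lowest arrays were the 2 combination arrays, and its second probe set ranged over 0.33. IL1B, the secreted interleukin-1, varied little, at 5.74, 5.67 and 5.78 in control, 5.61, 5.66 and 5.86 with cisplatin, 5.70, 5.73 and 5.72 with nimesulide, and 5.61 and 5.50 in the combination.

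NFKBIA encodes IkappaB-alpha, which holds NF-kappaB in the cytoplasm. Its level was 8.48, 9.21 and 8.71 in control, 8.58, 8.89 and 8.61 with cisplatin, 8.37, 8.99 and 8.66 with nimesulide, and 8.44 and 8.47 in the combination. TNFAIP3 encodes A20, a ubiquitin-editing enzyme that ends NF-kappaB signalling, and read (202644_s_at) 6.28, 7.09 and 6.26 in control, 6.55, 6.89 and 6.45 with cisplatin, 6.24, 7.30 and 6.63 with nimesulide, and 6.42 and 6.56 in the combination. Both inhibitor genes were highest on the 3 B arrays outside the combination, as were CXCL8, CXCL1 and IL6. ICAM1, which binds integrins of leukocytes, read (202637_s_at) 6.89, 7.18 and 7.08 in control, 6.90, 7.26 and 7.04 with cisplatin, 6.95, 7.32 and 7.04 with nimesulide, and 6.92 and 6.84 in the combination. Its B arrays were the highest as well, by a narrower margin of 0.11.

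**Figure D2:**
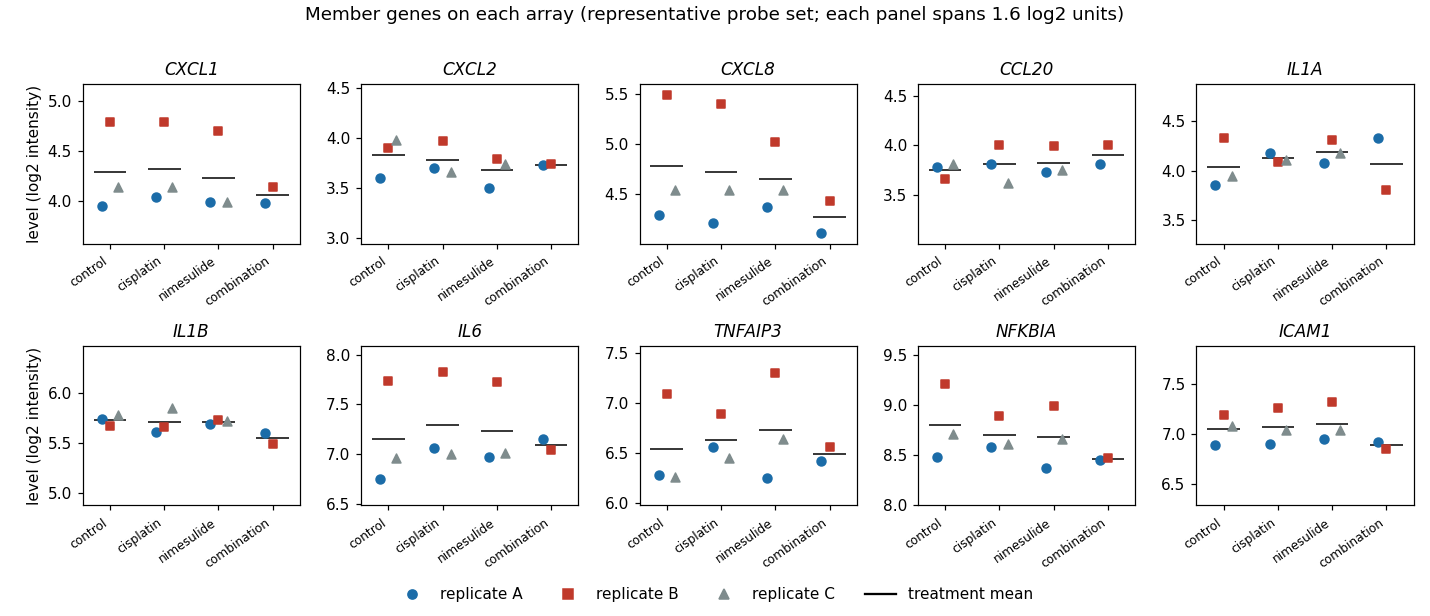
Level of each of the 10 genes (log2 intensity, y axis) in the 11 arrays by treatment (x axis), for the probe set with the highest mean of each gene. Each panel spans 1.6 log2 units, and symbols mark the replicate letter and bars the treatment mean. In CXCL1, CXCL8, IL6, TNFAIP3, NFKBIA and ICAM1 the squares of replicate B lie above the other symbols in control, cisplatin and nimesulide. In the combination, B lies above A for CXCL1, CXCL8, TNFAIP3 and NFKBIA and below it for IL6 and ICAM1.

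The first comparison, nimesulide with control, addresses the effect of this cyclooxygenase-2 inhibitor on the members. The members' treatment means were close together. CXCL8 was 4.78 ± 0.63 in control and 4.65 ± 0.34 with nimesulide, IL6 was 7.15 ± 0.52 and 7.24 ± 0.42, and NFKBIA was 8.80 ± 0.38 and 8.68 ± 0.31 (SD, n = 3 each). None of the 15 member probe sets was called (limma over all probe sets, adjusted p under 0.05), with 0.0061% of all probe sets called, and none had an unadjusted p under 0.05, against 5.43% of all. The lowest adjusted p among members was 0.960. The differences ran from -0.15 for CXCL2 to 0.18 for TNFAIP3, and their standard errors from 0.07 to 0.30. These errors are of the fit without the letter and include the spread between letters. A difference of their size was not detectable in that fit. The median difference over the 10 genes was 0.02, against -0.00 over all genes. By letter, that median was 0.00 in A, -0.02 in B and -0.04 in C. It ranged from -0.13 without nimesulide B to 0.15 without control B. With the letter as a replicate block, 37 of all probe sets were called in place of 1, and none of the members was. The lowest adjusted p of limma among members was then 0.776, and none had an unadjusted p under 0.05.

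Cisplatin against control gave the same count. CXCL8 was 4.72 ± 0.62 with cisplatin, IL6 7.30 ± 0.46 and NFKBIA 8.69 ± 0.17 (SD, n = 3 each). None of the 15 probe sets was called, with 0% of all probe sets called, and none had an unadjusted p under 0.05, against 4.65% of all. The lowest adjusted p among members was 0.984, and the largest difference was that of IL6, 0.14 (SE 0.26). The median difference over the 10 genes was 0.02, against -0.01 over all genes, and within letters A, B and C it was 0.09, -0.01 and 0.00. It ranged from -0.10 without cisplatin B to 0.16 without control B. The errors and p-values above are of the fit without the letter. With the letter as a replicate block, no probe set was called for cisplatin against control. The lowest adjusted p of limma among members was then 0.877, and none had an unadjusted p under 0.05. Between nimesulide and cisplatin 0 of 15 member probe sets were called, with 0.0061% of all called, and 0 had an unadjusted p under 0.05, against 6.59% of all. The comparisons with control share the control arrays, and no likeness between them is drawn from that.

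In the combination against control, the members' means were lower for 8 of the 10 genes, beside 4939 of all 8549 genes, and none passed. CXCL8 was 4.27 ± 0.23 in the combination (SD, n = 2), a difference of -0.51 (SE 0.34) from control. Its second probe set (211506_s_at) differed by -0.16 (SE 0.20). NFKBIA was 8.46 ± 0.02, a difference of -0.34 (SE 0.19), and CXCL1 was 4.06 ± 0.12, a difference of -0.23 (SE 0.26). None of the 15 member probe sets was called, with 0% of all called, and the lowest adjusted p of limma among members was 0.624. IL1B alone had an unadjusted p under 0.05, with a difference of -0.18 (SE 0.08), against 7.9% of all probe sets. These errors and p-values are of the fit without the letter and include the spread between letters. With the letter as a replicate block, other members had an unadjusted p under 0.05, as given in the closing section. Both combination arrays lay below all 3 controls for 3 of the 15 probe sets (IL1B, NFKBIA and ICAM1 215485_s_at), against 13.7% of all probe sets. The median difference over the 10 genes was -0.13, against -0.02 over all genes.

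The median differed between the replicate letters. Within letter A the combination stood 0.03 above control in the median of the 10 genes, with 3 genes lower. Within letter B it stood at -0.53, with 9 genes lower. Medians and shares over all genes within a letter are not given, here or below. A shift of a whole array thus cannot be told apart from these values. In letter B, CXCL8 was at -1.06, NFKBIA at -0.74, IL6 at -0.70 and CXCL1 at -0.65, whereas CCL20 was at 0.34. In letter A the same differences were -0.19, -0.03, 0.40, 0.03 and 0.03. The second CXCL8 probe set (211506_s_at) was at -0.38 in letter B and -0.12 in letter A. In the fit over all arrays, the median of -0.13 over the 10 genes became -0.02 without control B and -0.23 without control A. It was -0.13 without combination B and -0.18 without combination A. The missing letter C array means that letter and treatment are not balanced in this contrast.

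Against the single agents, the 2 letters again gave different medians. In the combination against cisplatin, 0 of 15 member probe sets were called, with 0% of all called, and 0 had an unadjusted p under 0.05, against 7.09% of all. The median over the 10 genes was -0.17 (all genes -0.00), and -0.05 without cisplatin B. Within letter A it was -0.00 and within letter B -0.37. In the combination against nimesulide 0 of 15 were called, with 0% of all called, and 0 had an unadjusted p under 0.05, against 6.79% of all. That median was -0.17 (all genes -0.01), -0.01 without nimesulide B, 0.07 within letter A and -0.52 within letter B. The calls and p-values of both comparisons are of the fit without the letter.

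The combination was then set against the sum of the single agents, that is, the cisplatin and nimesulide differences from control added on the log2 scale. Over all arrays this interaction was -0.32 (SE 0.46) for CXCL8, -0.28 (SE 0.39) for IL6, -0.32 (SE 0.36) for TNFAIP3 and -0.12 (SE 0.25) for NFKBIA. None of the 15 probe sets was called, with 0% of all called, and none had an unadjusted p under 0.05, against 4.57% of all. The lowest adjusted p among members was 0.963. These errors and p-values too are of the fit without the letter and include the spread between letters. In letter A, IL6 stood at 0.40 in the combination against a sum of 0.53, and IL1A at 0.48 against 0.55. CXCL1 stood at 0.03 against 0.13 and NFKBIA at -0.03 against -0.01. In letter B, IL6 stood at -0.70 against a sum of 0.06, and CXCL1 at -0.65 against -0.10. IL1A stood there at -0.52 against -0.26 and NFKBIA at -0.74 against -0.54. The second IL1A probe set (210118_s_at) stood at 0.05 against 0.20 in letter A and -0.19 against 0.14 in letter B. Over the 10 genes the median interaction was -0.06 in letter A, with 7 genes below the sum, and -0.41 in letter B, with 10 genes below it. With 1 array per treatment in a letter, these values have no test, and no share over all genes within a letter stands beside them. Every letter B value of the combination also rests on the label of 1 array, combination B, where the mean of the 10 genes, each less its own mean over the arrays, was -0.12 against 0.30 to 0.33 on the other B arrays. Whether that letter is right was not tested.

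**Figure D3:**
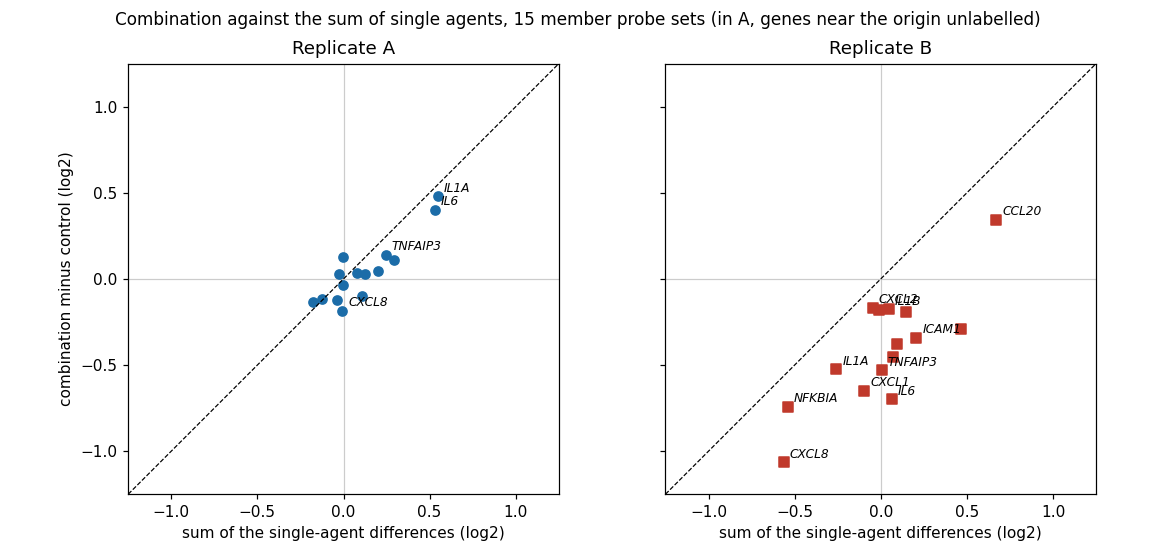
Combination minus control (y axis, log2) against the sum of the cisplatin and nimesulide differences from control (x axis, log2) for the 15 probe sets, within replicate A (left) and replicate B (right). The dashed line marks equality, and gene names mark representative probe sets. In replicate B all points lie below the line, with CXCL8 at -1.06 on the y axis and its second probe set at -0.38.

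Since the spread of several members followed the replicate letter, the letters were compared directly, over the 9 control, cisplatin and nimesulide arrays with treatment as a second term. This comparison was added after the values were seen, and 3 arrays carry each letter. The 6 genes that rose in replicate B over A were CXCL8, IL6, CXCL1, TNFAIP3, NFKBIA and ICAM1. CXCL8 was higher by 1.02 log2 units (SE 0.10, 2.03-fold, adjusted p of limma 0.000179) and IL6 by 0.83 (SE 0.07, adjusted p of limma 0.000104). CXCL1 followed at 0.77 (SE 0.06) and TNFAIP3 at 0.74 (SE 0.11). NFKBIA rose by 0.56 (SE 0.08) and ICAM1 by 0.34 (SE 0.06, adjusted p of limma 0.0167).

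In all, 9 of the 15 member probe sets were called higher in B than in A and 0 lower, with 1.53% of all probe sets called (0.72% higher and 0.812% lower). The second probe sets of CXCL8 (0.54, SE 0.09) and TNFAIP3 (0.67, SE 0.09) were among the 9, as was ICAM1 202638_s_at (0.44, SE 0.08), while ICAM1 215485_s_at did not pass at 0.12 (SE 0.08). The other 4 genes did not pass either: CXCL2 was at 0.29 (SE 0.08), IL1A at 0.21 (SE 0.09), CCL20 at 0.11 (SE 0.09) and IL1B at 0.01 (SE 0.07). The same 9 probe sets had all 3 B arrays above all 6 A and C arrays, against 2.22% of all probe sets. The median difference over the 10 genes was 0.45, against -0.00 over all genes. Leaving out 1 array at a time gave 6 to 9 called probe sets. ICAM1 202637_s_at lost its call without control A, cisplatin A, cisplatin B, nimesulide A or nimesulide B, and CXCL8 211506_s_at without nimesulide A. ICAM1 202638_s_at lost it without control A, control B, nimesulide A or nimesulide B.

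The difference was present within each of the 3 treatments. CXCL8 in B stood above A by 1.203 in control, 1.199 with cisplatin and 0.65 with nimesulide. Its second probe set (211506_s_at) gave 0.46, 0.37 and 0.78, so the order of the treatments differed between the probe sets. For IL6 these differences were 0.99, 0.76 and 0.74, for CXCL1 0.84, 0.75 and 0.71, and for NFKBIA 0.73, 0.31 and 0.62. For TNFAIP3 (202644_s_at) they were 0.82, 0.34 and 1.06. Between the 2 combination arrays they were 0.32 for CXCL8 (0.20 for its second probe set), -0.11 for IL6, 0.16 for CXCL1, 0.03 for NFKBIA and 0.15 for TNFAIP3.

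Replicate B against C gave 6 called probe sets of 15, with 0.732% of all called (0.366% higher), and these belonged to CXCL1 (0.67, SE 0.06), IL6 (0.77, SE 0.07), CXCL8 (0.76, SE 0.10) and TNFAIP3 (0.65, SE 0.11). This count was 2 without control C, 3 without cisplatin C or nimesulide C, and up to 7 without other arrays. NFKBIA did not pass at 0.37 (SE 0.08, adjusted p of limma 0.0598). Replicate C against A gave 0 of 15, with 0.11% of all called, and 3 members had an unadjusted p under 0.05 (CXCL2, CXCL8 and NFKBIA), against 8.42% of all.

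**Figure D4:**
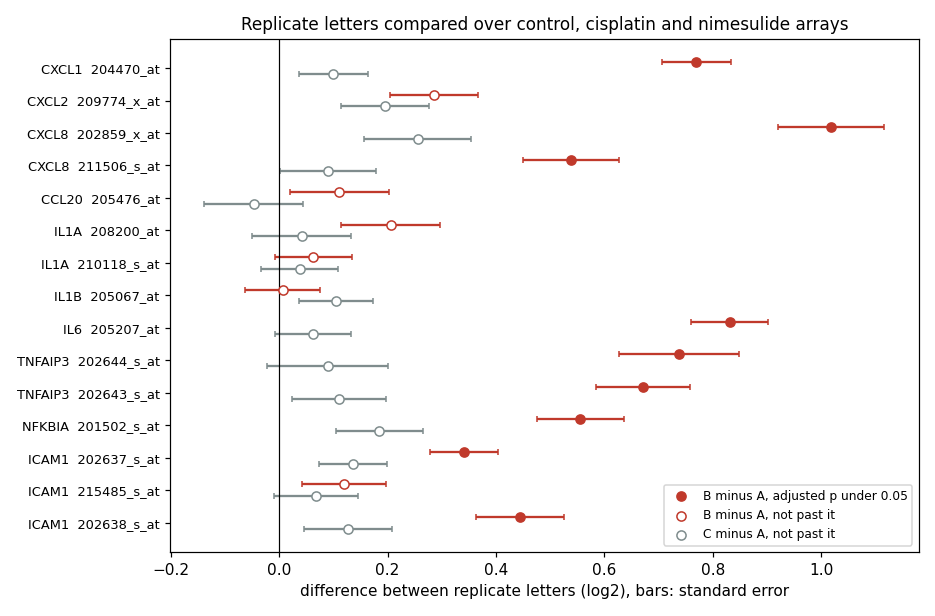
Difference between replicate letters (x axis, log2; B minus A in red, C minus A in grey) for the 15 probe sets (y axis) over 9 arrays, with bars for the standard error and filled symbols for an adjusted p under 0.05. CXCL8 202859_x_at is the highest at 1.02, and the filled symbols belong to 6 genes.

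A further fit, also added after the values were seen, used all 11 arrays with treatment, letter and a term for combination B. That array was chosen because it was seen not to join the other B arrays. The combination mean then rests on combination A alone. Each value is thus combination B minus combination A, less the difference of letter B from letter A over the other arrays. It rests on both combination arrays and is not a departure of combination B alone, and its spread is taken from the other arrays. Since the letter difference is taken off, a gene picked for being high in B over A tends to be low in this term. The values listed next are of representative probe sets. Other probe sets gave smaller values for IL1A (-0.22), CXCL8 (-0.33) and TNFAIP3 (-0.31), and those of ICAM1 gave -0.49 and -0.06. The representative probe set of IL1A (208200_at) had a mean level of 4.11, level with the lower quartile. IL6 was at -0.94 (SE 0.14, adjusted p of limma 0.0808), IL1A at -0.74 (SE 0.18), CXCL8 at -0.69 (SE 0.20), CXCL1 at -0.60 (SE 0.13), TNFAIP3 at -0.59 (SE 0.22), NFKBIA at -0.53 (SE 0.16) and ICAM1 at -0.42 (SE 0.13). None of the 15 probe sets was called, with 0.0061% of all called, and IL6 passed in a trended robust fit. Of the 15, 8 were lower at an unadjusted p under 0.05, against 3.42% of all probe sets lower and 8.06% in either direction.

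Correlations between members over the 11 arrays are given as a description. The 6 genes called between B and A were all high on the same 3 arrays, so high correlations among them follow from how they were picked. Pearson's r among them was 0.784 to 0.956 (15 pairs), and it was -0.534 to 0.703 for the 30 other pairs of members. The arrays also share treatments and letters. The mean of the 10 genes, each less its own mean, was 0.33, 0.30 and 0.31 in control B, cisplatin B and nimesulide B, and -0.12 in combination B. It was -0.22, -0.11 and -0.19 in control A, cisplatin A and nimesulide A, and between -0.07 and -0.05 on the C arrays.

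Outside the members, the genes whose level over the 11 arrays was most like this mean were PLAU (r = 0.979), IL32 (0.971), THBD (0.952), HLA-B (0.947) and COL6A1 (0.945). PLAU encodes the urokinase plasminogen activator, IL32 a pro-inflammatory cytokine, THBD the anticoagulant receptor thrombomodulin, HLA-B a class I antigen-presenting molecule, and COL6A1 a chain of type VI collagen. PLAU read 5.86, 6.73 and 6.13 in control A, B and C, 5.93, 6.56 and 6.20 with cisplatin, 5.89, 6.68 and 6.10 with nimesulide, and 5.92 and 6.08 in the combination. It too was highest on the 3 B arrays outside the combination, which follows from its pick by likeness to the member mean.

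**Figure D5:**
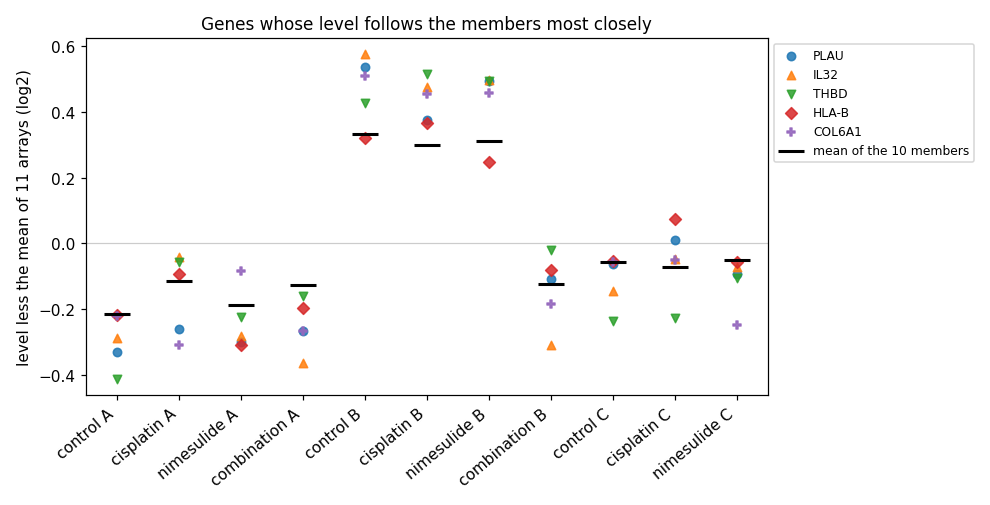
Level less its own mean over 11 arrays (y axis, log2) of the 5 genes most like the mean of the members, by array (x axis, ordered by letter), with the mean of the 10 members as a black bar. The bars stand at 0.30 to 0.33 on 3 of the B arrays and at -0.12 on combination B.

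Other genes of the pathway were taken from a list of 78, of which 67 were measured. In the 7 treatment contrasts none of the 67 was called in either direction. With nimesulide, the lowest unadjusted p-values belonged to the matrix protease gene MMP9 (0.20, SE 0.08) and the cytokine gene IL18 (0.28, SE 0.12) among those with higher means, and to PTGS2, which encodes cyclooxygenase-2 (-0.17, SE 0.08), and the kinase gene MAP3K14 (-0.21, SE 0.11) among those with lower means. PTGS2 itself read between 3.12 and 3.51 in all arrays, below the lower quartile. With cisplatin they belonged to the IkappaB kinase gene CHUK (0.22, SE 0.07), IL18 (0.31, SE 0.12), MAP3K14 (-0.25, SE 0.11) and the chemokine gene CCL2 (-0.12, SE 0.06). In the combination they belonged to the receptor antagonist gene IL1RN (0.29, SE 0.08), IL18 (0.36, SE 0.13), the adaptor gene MYD88 (-0.25, SE 0.06) and the chemokine gene CXCL10 (-0.20, SE 0.07).

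MYD88, which relays interleukin-1 and Toll-like receptor signals, read 9.84, 9.87 and 9.85 in control, 9.83, 9.79 and 9.80 with cisplatin, 9.74, 9.77 and 9.77 with nimesulide, and 9.62 and 9.58 in the combination. Both combination arrays were below all others, but its adjusted p of limma against control was 0.30. MYD88 was named for its small p, so this separation follows in part from the pick. Both combination arrays lay below all 3 controls for 13.7% of all probe sets.

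Between letters B and A, 5 of the 67 were called higher and none lower, against 0.912% of all 8549 genes called higher and 0.994% lower. These were the targets PLAU (0.76, SE 0.07), LCN2 (0.74, SE 0.10), IL15 (0.71, SE 0.09) and CCL5 (0.56, SE 0.10) and the receptor gene TLR2 (0.36, SE 0.07). LCN2 encodes lipocalin-2, which sequesters bacterial iron carriers, IL15 a cytokine for natural killer and memory T cells, and CCL5 a chemokine for T cells. None of the 5 subunit genes, 14 adaptor and kinase genes or 5 other inhibitor genes was called. The median over the 67 genes was 0.07, against -0.00 over all genes. LCN2 was also higher in C than in A (0.67, SE 0.10), and PLAU was the gene of the list called between B and C (0.52, SE 0.07).

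Of the 7 measured squamous markers, ITGB4 and KRT14 were called lower in B than in A and none higher, beside the 0.994% of all genes called lower. The mean of the 7 was 7.65 to 7.73 on the A arrays of control, cisplatin and nimesulide, 7.46 to 7.503 on the B arrays and 7.48 to 7.71 on the C arrays. It was 7.59 in combination A and 7.504 in combination B. The ranges of B and C overlapped, and the mean was not tested. The leukocyte markers averaged 4.85 to 4.92 on A arrays and 4.87 to 4.93 on B arrays, and no leukocyte, fibroblast or endothelial marker was called between B and A. The part of these markers in the letter difference was not tested, and a change in the number of cells that make a transcript and a change in its amount per cell cannot be told apart in bulk RNA. What the letters stand for, beyond sets of experiments, was not given in the sources used here. The arrays of a letter are its treatments and not repeats of the set. The p-values of the letter comparisons thus measure how far the letter difference varied between treatments, and not the spread between sets.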

How the data were processed

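RNA of the SCC9 line was hybridised to 11 U133A arrays (3 control, 3 cisplatin, 3 nimesulide and 2 combination). The authors normalised the arrays with RMA, per the labels, and the deposited values are on a log2 scale, as their range of 2.53 to 13.4 shows. The RMA version was not given in the sources used here. The number of arrays limits the precision. Probe sets were named from the platform's annotation, which gave 1 symbol for 14045 of 16383 probe sets. A gene is represented by its probe set with the highest mean.

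Treatment means were estimated for all probe sets with limma 3.58.1 in R 4.3.3 (7 residual degrees of freedom), with 7 contrasts, two-sided tests and Benjamini-Hochberg adjustment over all probe sets. Calls required an adjusted p under 0.05. Same-letter arrays of control and a single agent correlated at 0.135 to 0.355 once treatment means were removed (3 pairs per agent), and different letters at -0.251 to 0.0342, so the letter was taken to pair these 2 comparisons. The method was tested on simulated data, with noise independent between arrays and known shifts added. Apart from added shifts these data had no spread between letters, so they cannot show how that spread acts on the fits. The members, the pathway list and the marker lists were chosen with earlier results of these data known. Named genes were all members, pathway genes called in a contrast or with the 2 smallest p-values in each direction for a treatment against control, and the 5 genes most correlated with the member mean. The letter comparisons (4 residual degrees of freedom) were chosen after the values were seen. Alternatives were the replicate block, quantile normalisation, a filter at the median level, a trended robust fit, the block on letters A and B alone, a gene's median probe set and leaving out each array. Motifs were searched in RefSeq promoter windows.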

Additional observations from a re-analysis of the deposited data

How the results depend on the processing

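In each of the 7 treatment contrasts, 0 of the 15 member probe sets were called under every alternative run. The pairing by letter was not established for nimesulide against cisplatin, where 1 of 3 same-letter correlations was 0.0831, or for the combination, with 2 pairs each (0.0883 to 0.210). With the replicate block, calls among all probe sets numbered 37 (main 1) for nimesulide against control, 33 (0) for the combination against control, 37 (0) against cisplatin and 43 (1) for nimesulide against cisplatin. The block called no member. At an unadjusted p under 0.05 it put 3, 4 and 5 of the 15 member probe sets lower in the combination against control, cisplatin and nimesulide, beside 5.19%, 4.09% and 5.43% of all probe sets and against 1, 0 and 0 without it. Their lowest adjusted p of limma was 0.206, 0.232 and 0.431, the first for CXCL8 (-0.59). With the block on letters A and B only, calls among all probe sets numbered 1 for nimesulide against control and 7 for the combination against control. They numbered 9 for the combination against cisplatin and 2 for nimesulide against cisplatin. The trended robust fit gave 2, 5, 3 and 9 calls for these 4 contrasts, 192 for letter B against C and 31 for C against A. For the term of combination B, which rests on both combination arrays, it gave 5, of which 1 was a member, IL6. In the counts that follow, combination B stands for that term. Quantile normalisation gave 2 calls for the combination against cisplatin and 3 for nimesulide against cisplatin. The filter at the median level gave 5 for the latter and 0 for combination B. With all 11 arrays, letter B against C had 23 calls, of which 2 were members.

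Without 1 array at a time, calls among all probe sets ranged from 0 to 4 for nimesulide against control, 0 to 1 for the combination against control, 0 to 4 against cisplatin, 0 to 3 for nimesulide against cisplatin, 142 to 215 for letter B against A, 19 to 151 for B against C, 1 to 29 for C against A and 1 to 2 for combination B. Called members in B against C ranged from 2 to 7. Uncalled differences that changed sign were those of the combination against nimesulide for CXCL8 211506_s_at (-0.38 to 0.0144) and TNFAIP3 202643_s_at (-0.46 to 0.0272), both positive without nimesulide B, the interaction of IL1A 208200_at (-0.47 to 0.0602, positive without combination B) and CXCL2 in B against C (-0.0220 to 0.18, negative without cisplatin C). The causes were not tested. Signals of CXCL2, CCL20 and the lower CXCL8 and IL1A probe sets lay below the lower quartile of levels, which limits what they can show.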
